A study of Mus musculus with 8 samples.

Results

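Homozygous Gtl2 polyadenylation knock-in embryos (HOMO) were compared with wild-type embryos (WT) of the same series of whole mouse embryos. In the knock-in, 3 polyadenylation cassettes, which end a transcript soon after it starts, had been placed into the promoter of Gtl2, the non-coding RNA gene also called Meg3, by a CRISPR method (Easi-CRISPR). HOMO embryos carry the insertion on both the maternal and the paternal chromosome, embryos labelled PKI on the paternal one alone, embryos labelled MKI on the maternal one alone, and WT embryos on neither. No other allele or treatment is given. The sources used here give neither strain nor sex, and neither the number of embryos per library nor that of founder lines. The design text puts all embryos at embryonic day 12.5, whereas the sample titles read E12.5 for WT, E12.6 for PKI, E12.7 for MKI and E12.8 for HOMO, so a small difference in stage cannot be told apart from genotype.

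Of the 8 samples labelled, 2 per genotype, 4 belong to HOMO and WT. Each deposited table holds 4 columns, 1 per genotype, and the comparison uses 2 of them. There are thus no replicates, no difference here has a replicate check, and no p-value is given. The filter kept 13279 of 29619 genes at 1 FPKM (fragments scaled to transcript length and library size) or more in at least 2 of the 4 columns, 6181 of 29158 long non-coding transcripts at 0.5 FPKM or more, and 505 of 2395 small RNAs at 10 RPM (reads scaled to a fixed total per column) or more. Differences are HOMO minus WT on the log2(value + 0.5) scale, which understates the change of low genes, and "past 2-fold" means a difference of 1 or more on that scale. The PKI and MKI values stand beside them as the other measurements of the series, and 4 levels given without column names are in the order WT, PKI, MKI, HOMO.

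The Dlk1-Dio3 domain is an imprinted stretch of mouse chromosome 12. From the maternal chromosome the cell reads a chain of non-coding RNAs, which begins at Gtl2 (Meg3) and passes through Rian and Mirg, and which holds many small nucleolar RNAs and one of the largest groups of microRNAs in the mouse. From the paternal chromosome it reads the protein-coding genes Dlk1, a Notch-like membrane protein that restrains differentiation, Rtl1, a retrotransposon-derived protein of fetal vessels, placenta and muscle, and Dio3, the enzyme that inactivates thyroid hormone. MicroRNAs are short RNAs that recognise messenger RNAs mainly through their seed, bases 2 to 8.

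The insertion was made at the Gtl2 promoter, so its unedited sequence is given first. RefSeq (GRCm38.p6) places a Meg3 start on the plus strand of chromosome 12, and the window from 250 bases before that start to 50 bases into the transcript is chr12:109540746-109541045, with the transcribed bases in capitals.
Meg3 promoter: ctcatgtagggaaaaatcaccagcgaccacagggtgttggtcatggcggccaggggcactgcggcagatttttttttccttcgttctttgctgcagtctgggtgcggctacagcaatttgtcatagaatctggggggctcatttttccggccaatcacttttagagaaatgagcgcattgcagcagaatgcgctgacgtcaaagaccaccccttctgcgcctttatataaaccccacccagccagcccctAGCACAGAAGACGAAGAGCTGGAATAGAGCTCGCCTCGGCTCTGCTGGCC
The window holds 13 CG dinucleotides, and 62.1% of 32851 RefSeq promoter windows of this length hold fewer. The sources used here do not say where in the promoter the insertion lies. On the same build the annotation runs from Dlk1 (109452485 to 109463336, protein-coding) through Meg3 (109540996 to 109571729, long non-coding), Rtl1 (109564900 to 109604418, protein-coding), Rian (109603945 to 109661716, long non-coding) and Mirg (109734981 to 109749458, long non-coding) to Dio3 (110279230 to 110281097, protein-coding).

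The mature microRNAs that carry the main finding are the 10 domain members most abundant in WT, given here from RefSeq, 5′ to 3′, with the seed in capitals.
miR-127-3p: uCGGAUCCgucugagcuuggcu
miR-541-5p: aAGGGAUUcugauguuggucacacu
miR-434-5p: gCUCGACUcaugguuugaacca
miR-370-3p: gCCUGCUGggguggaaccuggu
miR-381-3p: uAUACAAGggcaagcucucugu
miR-379-5p: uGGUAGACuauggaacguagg
miR-409-3p: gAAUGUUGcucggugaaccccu
miR-543-3p: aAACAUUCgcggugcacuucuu
miR-411-5p: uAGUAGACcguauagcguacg
miR-300-3p: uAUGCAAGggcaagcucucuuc
These 10 have 10 different seeds, and no microRNA from outside the domain with a RefSeq sequence shares any of them. miR-379-5p is the only one of the 10 whose seed recurs inside the domain, in miR-1193-5p.

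The microRNAs of the domain were almost lost in HOMO. They took 13.7% of all small-RNA reads in WT (exact Clopper-Pearson 95% interval 13.69 to 13.73%), 12.5% in PKI and 0.409% in MKI. In HOMO they took 0.427%. These intervals, and all those below, cover counting error only. In HOMO and MKI the share was thus far below the other pair of columns. The depth behind these shares was 8405962 reads in WT and 8016848 in HOMO, with 10072670 in PKI and 8638401 in MKI.

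Of the 109 domain microRNAs in the table, 104 were lower in HOMO than in WT, 3 were higher and 2 had no read in either column. The 77 that passed the filter all lay past 2-fold below WT, where 17% of all small RNAs tested did so. Because HOMO and MKI are both low, members could pass mainly through WT and PKI. Their median difference was -4.82, and they ranged from -6.88 to -2.54. Among the 79 with at least 100 reads in WT, the median level left in HOMO was 3.36% of WT. In HOMO 14 domain microRNAs had no read at all, against 2 in WT; 3 reads, the number a count of 0 still allows, correspond to 0.374 RPM in HOMO and 0.357 RPM in WT.

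Each of the 10 most abundant members lay in this range. miR-127-3p, which lies opposite Rtl1 and is complementary to its message, was at 26481 RPM in WT and 794 in HOMO, with 26139.5 in PKI and 455 in MKI. HOMO thus kept 3.00% of the WT level (exact conditional 95% interval 2.92 to 3.07%). miR-541-5p was at 19152, 23305, 965 and 549 RPM, and 2.86% was left. miR-434-5p was at 13281, 7642, 294.5 and 336 RPM, and 2.53% was left. Both of these show the same division, with WT and PKI high and MKI and HOMO low. miR-370-3p was at 10859, 7965, 399 and 398 RPM, with 3.67% left. miR-381-3p was at 10831, 6443, 271 and 368 RPM, with 3.40% left. miR-379-5p, the first of a long run of hairpins between Rian and Mirg, was at 7654, 6871, 207 and 257 RPM, with 3.36% left. The remaining 4 of the 10 kept between 2.75% (miR-543-3p, 4421 RPM in WT and 121 in HOMO) and 4.16% (miR-300-3p, 2712 RPM in WT and 113 in HOMO). In every one of the 10, the lowest of WT and PKI lay above the highest of MKI and HOMO.

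The losses were not of one size. The members with the least left are shown because they mark the lower edge of the range.
miR-673-5p: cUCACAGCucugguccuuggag
miR-539-5p: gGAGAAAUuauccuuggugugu
miR-341-3p: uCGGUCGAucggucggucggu
For miR-673-5p 692 reads in WT became 2 in HOMO, or 0.303% of the WT level (0.04 to 1.10%). For miR-539-5p 603 reads became 3, or 0.522%. For miR-341-3p 7307 reads became 55, or 0.789%. At the upper edge stood miR-376b-5p, miR-376a-3p and miR-668-3p.
miR-376b-5p: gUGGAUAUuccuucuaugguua
miR-376a-3p: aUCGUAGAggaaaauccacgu
miR-668-3p: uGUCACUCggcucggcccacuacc
Of miR-376b-5p 16.03% was left (11.6 to 21.8%, from 314 reads in WT and 48 in HOMO). Of miR-376a-3p 9.44% was left, on 100 reads in WT and 9 in HOMO, and of miR-668-3p 8.09%, on 389 and 30 reads. The interval of miR-376b-5p lies above those of the 3 lowest members, which overlap one another.

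The loss ran along the whole maternal transcript chain. The single hairpin in the Meg3 span kept 4.15% of its summed WT level. The 12 plus-strand hairpins inside the Rtl1 span, opposite Rtl1, kept 2.86% (48307 RPM in WT and 1382 in HOMO). The 3 hairpins in the Rian span kept 3.45%, the 25 plus-strand hairpins between Rian and Mirg 3.27%, and the 9 in the Mirg span 3.07%. Across 78 microRNAs with a position and at least 100 WT reads, the percent left had a Spearman's rho of 0.44 with distance along the domain and of -0.26 with WT reads; all 78 points come from the same pair of columns, so both are descriptions only.

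**Figure D1:**
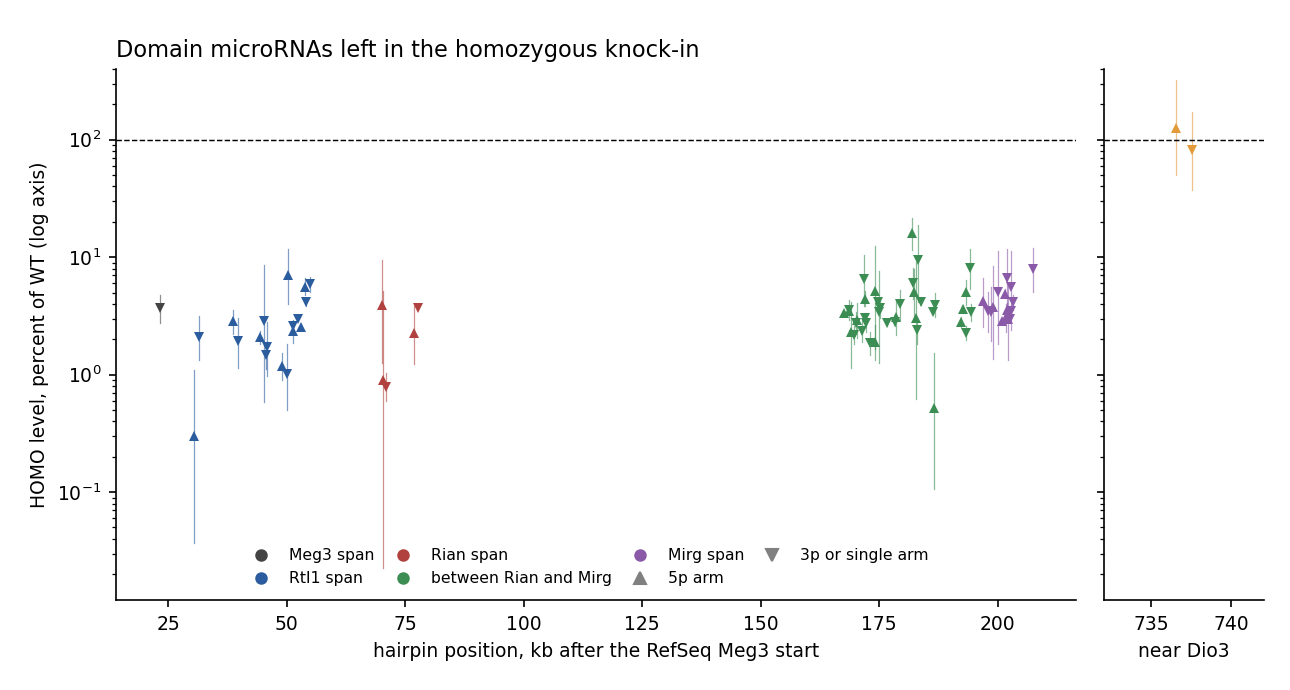
The horizontal axis gives the hairpin's distance in kb after the RefSeq Meg3 start, and the vertical log axis the HOMO level as a percent of WT, for domain microRNAs with 100 or more WT reads (left) and for both arms of Mir1247 near Dio3 (right). Points are single mature microRNAs coloured by section, bars are exact 95% counting intervals, and the dashed line marks 100%. The left points lie between 0.303 and 16.03%, and both Mir1247 arms have intervals that include 100%.

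The 3 domain microRNAs that were higher in HOMO all come from the minus strand, opposite to Meg3, Rian and Mirg. They are both arms of Mir3544 and, by 10 reads in WT against 12 in HOMO, the 5p arm of Mir1247. As background, Rtl1 is also read from that strand. Mir3544 is the minus-strand hairpin at chr12 109585813 to 109585873, inside the Rtl1 span and within the plus-strand hairpin Mir337 (109585789 to 109585885). The mature sequences of this pair are nearly each other's reverse complement, with a shared run of 21 bases between miR-337-3p and the reverse complement of miR-3544-5p.
miR-337-3p: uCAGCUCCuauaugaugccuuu
miR-3544-5p: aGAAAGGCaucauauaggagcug
miR-3544-5p was at 0.595 RPM in WT and 6.61 in HOMO, with 0.596 in PKI and 9.26 in MKI, from 5 reads in WT and 53 in HOMO. That is 1111% of WT (448 to 3563%). miR-3544-3p had 1 read in WT and 7 in HOMO. From the other strand of the same DNA, miR-337-5p had 1378 RPM in WT and 28.6 in HOMO, with 1497 in PKI and 25.6 in MKI (2.07% of WT). The 2 strands of this site thus stood in opposite order across the columns. miR-3544-5p is rare and did not pass the 10 RPM filter.

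The other minus-strand hairpin with reads in both columns was Mir1247, at chr12 110278048 to 110278129, close to Dio3 and at the edge of Dio3os, which RefSeq also places on the minus strand. Its summed level was 3.33 RPM in WT and 3.24 in HOMO, with 1.79 in PKI and 2.55 in MKI, or 97.4% of WT (54.8 to 172%). With 28 reads in WT and 26 in HOMO, no difference was detectable at this depth, while its interval lies far above that of every section of the maternal chain.
miR-1247-5p: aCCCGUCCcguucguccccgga
miR-1247-3p: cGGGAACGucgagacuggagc
Of the remaining minus-strand hairpins, Mir3071 had no read in WT or HOMO, and Mir299b had 2 reads in WT and none in HOMO.

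A hairpin yields a 5p and a 3p arm, and both come from the same precursor. Of 30 domain hairpins with 100 or more WT reads on both arms, 9 (30.0%) had arms whose intervals did not overlap. Outside the domain this held for 59 of 102 (57.8%) hairpins chosen by the same read minimum. That minimum was set on WT reads alone. Domain arms had far fewer reads in HOMO, which widens their intervals, so these shares cannot be compared. In Mir376b 16.03% of the 5p arm was left and 2.39% of the 3p arm. In Mir541 2.86% of the abundant 5p arm was left and 6.59% of the 3p arm. In Mir434 the values were 2.53% for 5p and 4.17% for 3p, in Mir341 3.94% and 0.789%, and in Mir673 0.303% and 2.11%. The less abundant arm kept the larger share in 17 of the 30.

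The domain microRNAs have 98 different seeds, 8 of which are also found in microRNAs from elsewhere. Of the 53 domain seeds whose total reached 100 RPM in WT, 47 had less than 5% of that total in HOMO, 4 had 5 to 50% and 2 had 50% or more, with a median of 3.03%. The seed of miR-329-3p is kept in part by the X-linked miR-362-3p.
miR-329-3p: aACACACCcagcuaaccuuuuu
miR-362-3p: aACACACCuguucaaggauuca
miR-329-3p was at 539 RPM in WT and 9.98 in HOMO, and miR-362-3p at 53.8 RPM in WT and 74.5 in HOMO. The pair summed to 593 RPM in WT and 84.4 in HOMO, so 14.2% of the total was left. The seeds with most left were those of miR-412-3p, shared with miR-1983 (1688 RPM in WT and 1821 in HOMO, 107% of the total), and of miR-377-5p, shared with miR-672-5p (157 and 160 RPM, 90.6% of the total). For both, the microRNA outside the domain had supplied nearly all of the WT level.

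**Figure D2:**
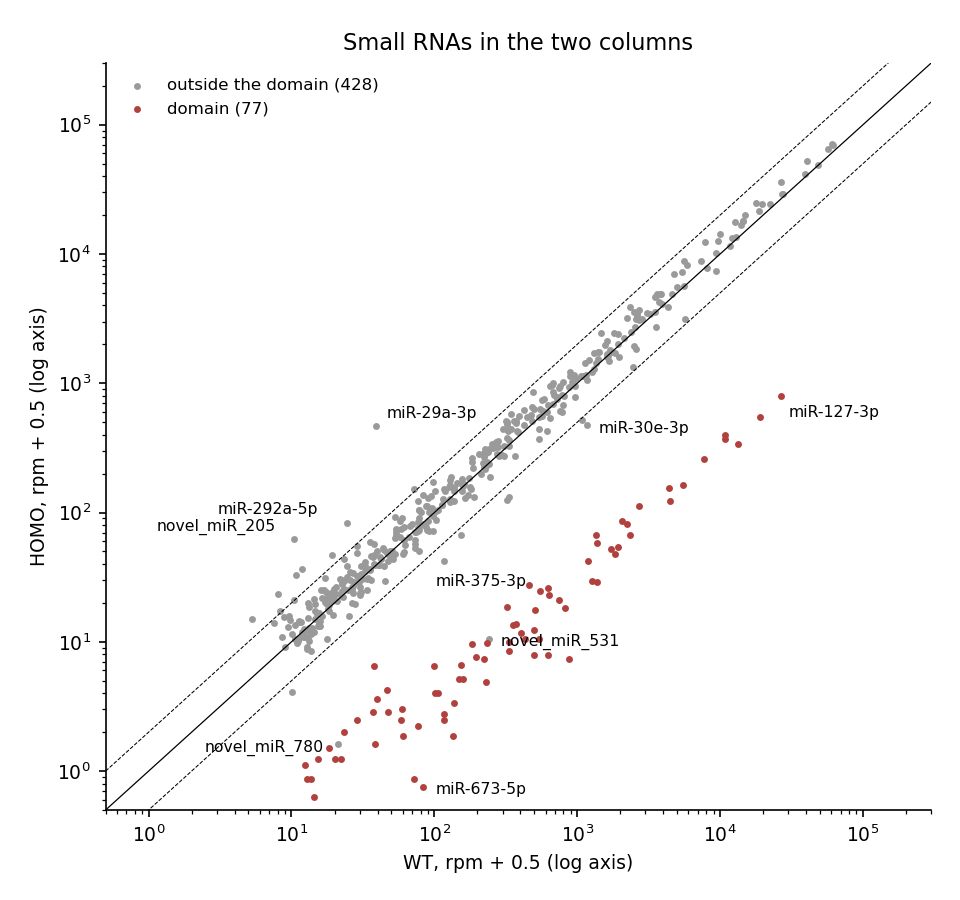
Each point is 1 of the 505 small RNAs tested, with RPM + 0.5 in WT on the horizontal and in HOMO on the vertical axis, both log axes, a solid line of equality and dashed 2-fold lines. The 77 domain microRNAs form a separate band below the diagonal, and of the other 428 miR-29a-3p stands furthest above the line of equality.

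MicroRNAs from outside the domain differed less. Of the 428 tested, 11 (2.57%) were past 2-fold higher and 9 (2.1%) lower, so over all small RNAs tested 11 (2.18%) were higher and 86 (17%) lower. Their median difference was 0.13 and 289 of 428 were above WT. The smaller domain share by itself raises every other microRNA by 0.21 on the log2 scale (15.4%), because RPM divides by the total, and relative to the RPM of microRNAs outside the domain this median falls below 0.

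Among microRNAs outside the domain that were above WT, the largest difference was in the miR-29 family, whose members are known to target collagens and other matrix messages and to rise with maturation of many tissues.
miR-29a-3p: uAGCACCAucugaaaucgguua
miR-29b-3p: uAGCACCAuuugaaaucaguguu
miR-29c-3p: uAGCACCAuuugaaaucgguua
miR-29a-3p (hairpin on chromosome 6, 31062660 to 31062747, minus strand) was at 38.4 RPM in WT and 463 in HOMO, with 37.7 in PKI and 54.2 in MKI. HOMO stood alone, at 1204% of WT (1074 to 1353%, 323 and 3708 reads). The shared-seed members were also higher at low depth, miR-29b-3p with 11 reads in WT and 86 in HOMO and miR-29c-3p with 10 and 45. The family summed to 40.9, 40.0, 58.7 and 479 RPM. The opposite arm miR-29c-5p was at 10.6 RPM in WT and 9.60 in HOMO. The 30 collagen genes tested were not past 2-fold, with 12 above and 18 below WT and a median of -0.05 that reaches 0.00 under either other scaling.

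The miR-290 to miR-295 cluster, microRNAs of pluripotent and early germ cells, summed to 55.2 RPM in WT and 169 in HOMO, with 71.1 in PKI and 90.1 in MKI (306% of WT, 275 to 341%). 12 of its 15 members were above WT and 1 below. Within it miR-292a-5p was at 23.9, 34.0, 41.3 and 83.0 RPM (1.77), and miR-295-3p at 7.85 RPM in WT and 16.8 in HOMO (1.05). The functionally related miR-302 and miR-367 cluster did not follow, at 201 RPM in WT and 164 in HOMO, with 9 of 9 members below WT.

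Among other microRNAs past 2-fold above WT were miR-33-5p, hosted in a gene of sterol regulation, at 11.3, 5.06, 3.70 and 36.2 RPM (1.64), miR-150-5p, a lymphocyte microRNA, at 10.2, 8.24, 5.79 and 32.6 RPM (1.62), and miR-132-5p, a neuronal one, at 18.6, 8.94, 12.3 and 46.5 RPM (1.303). In all 3 HOMO was the highest column. miR-219a-5p, a microRNA of the oligodendrocyte lineage, was at 71.0, 76.5, 95.6 and 151 RPM (1.08), whereas miR-219a-1-3p, the opposite arm of one of its 2 hairpins, was at 153, 164, 51.9 and 66.9 RPM (-1.19). The 2 arms thus stood in opposite order.

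The same split of arms was seen in miR-30a and miR-30e, whose 5p and 3p arms have different seeds.
miR-30a-5p: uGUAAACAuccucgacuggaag
miR-30a-3p: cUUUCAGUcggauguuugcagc
miR-30e-5p: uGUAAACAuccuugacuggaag
miR-30e-3p: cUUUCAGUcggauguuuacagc
miR-30e-3p was at 1161 RPM in WT and 476 in HOMO, with 1002 in PKI and 454 in MKI, or 41.0% of WT in HOMO. Its partner miR-30e-5p was at 5368, 5284, 9660 and 7252 RPM, or 135% (133 to 137%). miR-30a-3p was at 1076, 1111, 439 and 519 RPM (48.2%), and miR-30a-5p at 9906, 11659, 16197 and 14391 RPM (145%, with an upper bound of 147%). The hairpins lie apart, Mir30a on chromosome 1 (23272269 to 23272339) and Mir30e on chromosome 4 (120772606 to 120772697). Their relative miR-30b did not share the lower 3p arm, which was at 98.7% of WT (90.5 to 107.7%), with the 5p arm at 156%. Of 102 hairpins outside the domain with 100 or more WT reads on both arms, 5 had arms whose HOMO to WT ratios differed by more than 2-fold, those of miR-30e, miR-30a, miR-877, miR-34b and miR-301b. The less abundant arm was the relatively lower one in 56 of the 102, with a median of -0.05.

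The remaining microRNAs past 2-fold below WT also included miR-375-3p, the microRNA of pancreatic islet and pituitary cells, at 117, 107, 36.0 and 41.7 RPM (-1.47), and miR-301b-5p at 334, 225, 113 and 132 RPM (-1.34). The level of miR-598-3p was 322, 385, 128 and 125 RPM (-1.36). In these 3, as in miR-30a-3p, miR-30e-3p and miR-219a-1-3p, WT and PKI were both above MKI and HOMO. Among small RNAs that the authors named anew, novel_miR_531 had 239, 206, 9.49 and 9.98 RPM, which leaves 4.18% (3.30 to 5.22%) and lies within the range of the domain members. The sources used here give no position for it.

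Tissue-restricted microRNAs were mostly a little above WT, as were 289 of all 428 tested outside the domain. Lists without such restriction were similar, with 13 of 18 miR-17-92 microRNAs (median 0.33) and 9 of 11 other imprinted microRNAs (0.26) above WT. All 15 tested endothelial and blood microRNAs were above WT (median 0.40), as were 8 of 11 erythroid (0.40), 4 of 5 liver (0.43) and 7 of 7 muscle ones (0.29), against 0.13 over the 428. The red cell microRNAs miR-451a, miR-144 and miR-486 summed to 2068 RPM in WT and 3118 in HOMO, with 2405 in PKI and 3194 in MKI, or 151% of WT (148 to 154%). let-7 microRNAs, which accumulate as tissues mature, summed to 78246, 79307, 92312 and 102623 RPM (131%), with 17 of 21 above WT. The 16 tested neural microRNAs had a median of 0.05, which falls to -0.16 relative to the RPM outside the domain. For the 10 epidermal ones the median of 0.20 falls to -0.01 in the same way. In whole-embryo RNA, fewer cells of a type and less RNA per cell cannot be told apart here or in any result below.

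The paternally expressed genes of the domain stood higher in HOMO. Dlk1 was at 80.5 FPKM in WT and 181 in HOMO, with 55.7 in PKI and 83.4 in MKI. HOMO was the highest of the 4, 1.17 above WT on the log2 scale (2.25 times the WT level). Rtl1 was at 1.02, 0.610, 2.28 and 2.51 FPKM, a difference of 0.98, and here MKI and HOMO both lay above WT and PKI. Dio3 was at 0.568, 0.416, 0.217 and 1.42 FPKM and did not pass the filter; HOMO was again the highest column. The 3 genes thus shared a HOMO value above WT, whereas in MKI Rtl1 was above WT, Dlk1 close to it and Dio3 below it. The maternal long RNAs could not be followed, as none of the 13 listed was matched to a tested entry. Of these, 1 was found among the mRNA entries and did not pass the filter. The long non-coding transcripts are given by identifier without names, so no other was matched.

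**Figure D3:**
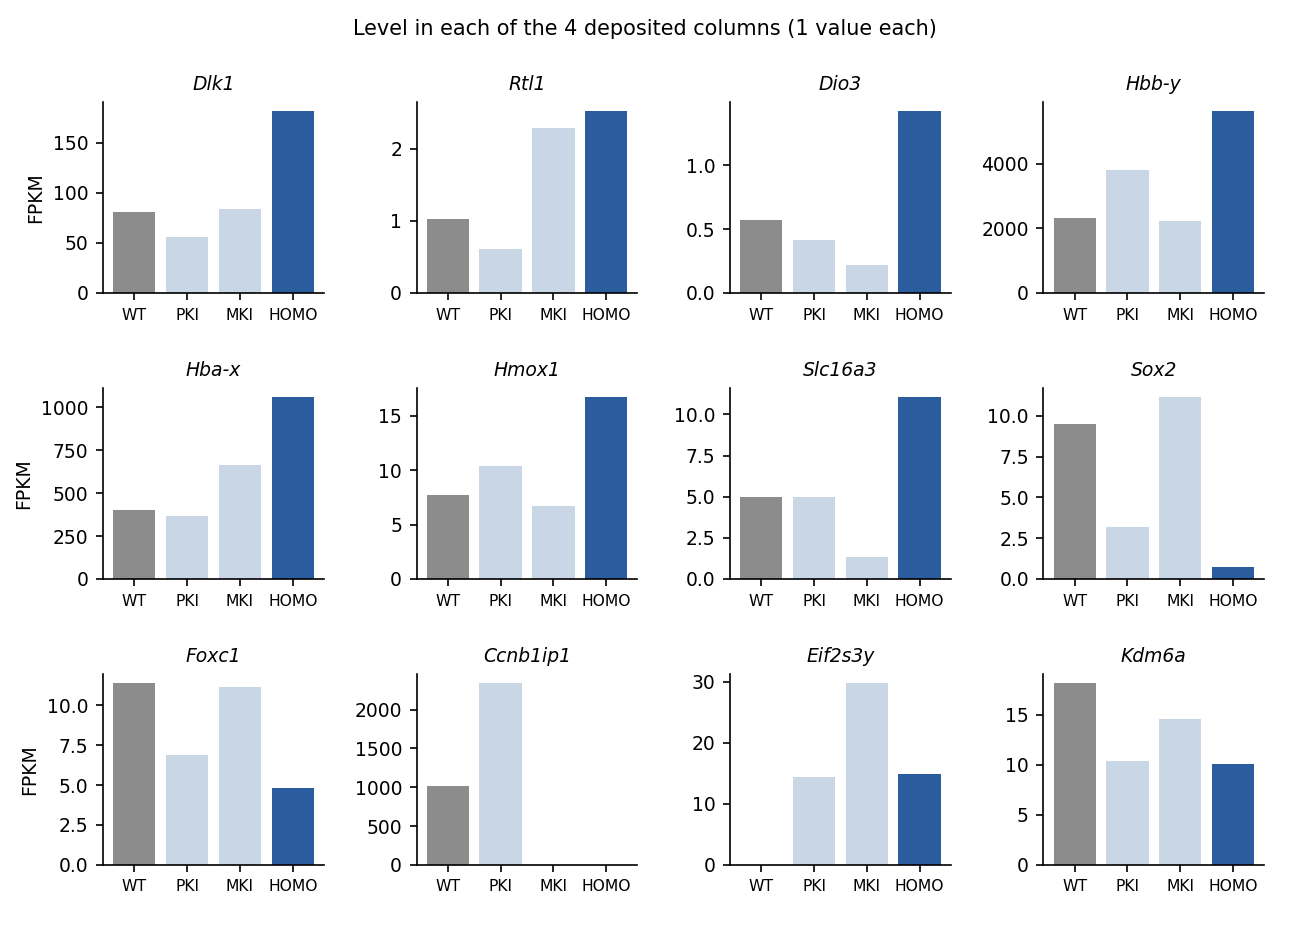
Bars give the FPKM of 12 genes in each of the 4 columns (grey WT, light blue PKI and MKI, dark blue HOMO), 1 value each without error bars, on linear axes that start at 0 and differ between panels. Dlk1, Rtl1, Dio3, Hbb-y, Hba-x, Hmox1 and Slc16a3 are highest in HOMO, Sox2, Foxc1, Kdm6a and Ccnb1ip1 are lowest there, and Eif2s3y is listed at 0 in WT.

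Outside these 3 genes the neighbourhood was close to WT, as were most genes. Of 68 genes tested within 5 Mb on either side of the domain, none was past 2-fold. Over all genes 0.67% were past 2-fold higher and 0.783% lower, so few would be looked for among 68. In this window 35 genes were above WT and the median was 0.01, beside 38.5% above WT and -0.06 over all genes. Among the 22 tested genes of the flanking list, Zfp839, a zinc finger gene, lay furthest from WT, at 3.14, 2.29, 1.29 and 1.38 FPKM (-0.96). Begain, the next gene on the Dlk1 side and a synaptic protein gene, was at 3.21 FPKM in WT and 3.48 in HOMO. Hsp90aa1, a chaperone, was at 249.6 FPKM in WT and 196 in HOMO (-0.35). Yy1, a zinc finger regulator, was at 18.8 and 15.6 FPKM (-0.26).

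None of the imprinted genes tested elsewhere was past 2-fold, beside 0.67% of all genes higher and 0.783% lower. In lists of this size that count does not set imprinted genes apart. Of 24 tested genes of paternal expression 8 were above WT (median -0.08), and of 22 of maternal expression 9 were above WT (median -0.02, above 0 under either other scaling). The largest difference was in Nnat, a membrane protein of neurons and endocrine cells, at 309, 262, 64.2 and 208 FPKM (-0.57). In a list of 13 growth-regulating imprinted genes Dlk1 alone was past 2-fold; Plagl1, a growth-regulating transcription factor, was at 68.1 FPKM in WT and 81.0 in HOMO, and Cdkn1c, a cell cycle inhibitor, at 236 and 207 FPKM.

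Over all 13279 genes the HOMO and WT columns were close. The median difference was -0.06, the 5th to 95th percentile ran from -0.49 to 0.35, and 5117 genes (38.5%) were above WT and 8162 (61.5%) below. Past 2-fold lay 89 genes higher (0.67%) and 104 lower (0.783%), so 46.1% of these genes were higher. With median-ratio scaling that share was 54.8%, and with quantile scaling 56.5%. The 0.67% and 0.783% are the background for the counts past 2-fold in all gene lists below. Genes without an established name took a larger share of these counts: of 12258 named genes 38 were higher and 30 lower (0.555% together), against 7.12% of 365 genes with predicted names and 15.1% of 656 assembled or unnamed genes. Of the 38 named higher genes 23 had their highest column in HOMO, and of the 30 lower 19 had their lowest there. The mRNA columns of PKI and MKI, for scale, had 93 and 162 genes past 2-fold above WT and 193 and 2532 below, so the MKI column stands apart from the other 3, also where its values are given below.

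Sex-linked genes separated the WT column from the other 3. The Y-linked genes Eif2s3y (0, 14.4, 29.7 and 14.9 FPKM), Uty (0, 15.3, 18.8 and 12.3), Ddx3y (0, 10.98, 14.3 and 8.06) and Kdm5d (0, 7.18, 10.4 and 7.12) were listed at 0 in WT and were present in the other columns. The WT column thus shows no Y-linked RNA and the HOMO column does, so sex cannot be told apart from genotype. All 6 tested X-linked genes of the X-dosage list, most of which escape X inactivation, were below WT, with a median of -0.55. Kdm6a, a histone demethylase, was at 18.1, 10.4, 14.6 and 10.04 FPKM, and Eif2s3x, a translation factor subunit, at 101, 58.3, 90.4 and 65.5 FPKM. Over 443 X-linked genes the median was -0.12 with 124 above WT, against -0.06 on the autosomes. The lowest single autosome came close to the X, chromosome 13 at -0.11 with 153 of 503 genes above WT.

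Embryonic globins had the highest median of the gene lists tested here apart from the Y-linked genes. The embryonic globins, made by the primitive red cells that leave the yolk sac, were all higher in HOMO (3 of 3, median 1.27). Hbb-y was at 2334 FPKM in WT and 5619 in HOMO, with 3798 in PKI and 2237 in MKI (1.27). Hba-x was at 399.99, 368, 663 and 1059 FPKM (1.40). Hbb-bh1 was at 220.2, 548, 91.3 and 374 FPKM (0.76). HOMO was the highest column for Hbb-y and Hba-x, while PKI was highest for Hbb-bh1. Their sum was 2.39 times that of WT, and under quantile scaling, which compresses the highest values, their median was 0.63. Their rank was lost there, because the 2 tested paternal genes of the domain, at 1.07 as reported, had a median of 1.16. The adult-type globins of definitive red cells followed less evenly, with 3 of 4 above WT (median 0.58). Hba-a2 was at 1528, 806, 609 and 2988 FPKM (0.97), and Hba-a1 at 1899, 1138, 793 and 2922 FPKM (0.62). These are near-identical copies, so the split of reads between them is uncertain. Hbb-bs was at 2201, 1123, 744 and 1972 FPKM (-0.16), below WT.

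Genes of heme and iron handling leaned the same way, with 12 of 17 above WT and a median of 0.19. Hmox1, which breaks heme down, was at 7.71, 10.4, 6.72 and 16.7 FPKM (1.07). It was the 1 member past 2-fold, beside 0.67% of all genes past 2-fold higher. Alas2, the first enzyme of erythroid heme synthesis, was at 27.9, 16.04, 34.1 and 45.9 FPKM (0.71), and Alad, the next enzyme, at 117, 78.0, 54.2 and 182 FPKM (0.64). In all 3 HOMO was the highest column. The wider list of red cell genes did not lean that way, with 12 of 28 above WT and a median of -0.05 that is just above 0 (0.01) under median-ratio or quantile scaling. In it Kel, a red cell membrane protein, was at 5.38, 2.94, 6.28 and 8.23 FPKM (0.57), Hemgn, a nuclear regulator, at 8.68, 2.93, 13.98 and 5.29 (-0.67) and Tfrc, the transferrin receptor, at 47.5, 30.6, 63.8 and 35.3 (-0.42). The regulators Gata1 and Klf1 were at 5.49 and 12.798 FPKM in WT and 6.62 and 9.73 in HOMO.

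Megakaryocyte genes stood above WT in 10 of 11 members, with a median of 0.33 and none past 2-fold. Tubb1, the platelet tubulin, was at 2.63, 1.02, 2.42 and 5.35 FPKM (0.90), Ppbp, a platelet chemokine, at 10.1, 2.94, 18.6 and 17.6 (0.78) and Itga2b, a platelet integrin, at 2.83, 0.726, 1.11 and 4.97 (0.72). PKI was the lowest column in each. Macrophage genes were above WT in 10 of 13 members (median 0.18), led by Laptm5 at 4.29 FPKM in WT and 6.23 in HOMO. Endothelial genes were above WT in 20 of 26 (median 0.16); Pecam1, a junction protein, was at 10.4 and 14.3 FPKM, and Vwf, a clotting factor carrier, at 3.06 and 4.99, while Erg, an endothelial transcription factor, was at 4.62 and 3.12.

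Glycolysis and hypoxia genes were above WT in 25 of 28 members, with a median of 0.15 beside -0.06 over all genes. Slc16a3, a lactate exporter, was the 1 past 2-fold, at 5.00, 4.95, 1.31 and 11.04 FPKM (1.07), beside 0.67% of all genes past 2-fold higher. The glucose transporters Slc2a1 and Slc2a3 were at 29.9 and 10.7 FPKM in WT and at 43.7 and 14.4 in HOMO. The list summed to 1748 FPKM in WT and 1967 in HOMO.

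Liver genes were divided. Of 30 tested products of hepatocytes, many of which yolk sac endoderm also makes, 17 were above WT (median 0.05). Alb, serum albumin, was at 205, 81.1, 542 and 259 FPKM and Afp, fetal albumin, at 292, 96.2, 457 and 365. Serpina1b, an antitrypsin, was at 16.8, 1.66, 3.33 and 4.31 FPKM (-1.84), past 2-fold lower, and its near-identical copy Serpina1a at 11.7, 4.14, 4.18 and 5.80 (-0.95). In both WT was the highest column. All 7 tested hepatic transcription factors were below WT (median -0.25), among them Foxa2 at 2.07 FPKM in WT and 1.24 in HOMO. Of the apolipoproteins, Apoc1 was past 2-fold higher, at 1.09, 0.808, 1.66 and 3.22 FPKM (1.23), and 6 of the 10 tested were below WT.

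Neuronal genes stood below WT in 28 of 31 members, with a median of -0.26 and none past 2-fold. Gad1, the enzyme that makes GABA, was at 4.59, 2.55, 3.51 and 2.84 FPKM (-0.61), Snap25, a synaptic vesicle fusion protein, at 6.98, 3.80, 11.7 and 4.86 (-0.48) and Dcx, a microtubule protein of young neurons, at 54.2, 26.4, 80.2 and 42.5 (-0.35). PKI was the lowest column for Gad1, Snap25 and Dcx. Tubb3, a broad neuronal tubulin, was at 183 FPKM in WT and 170.0 in HOMO. The whole list summed to 769 FPKM in WT and 664 in HOMO, with 500.4 in PKI and 632 in MKI.

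Of 21 neural progenitor genes 14 were below WT (median -0.20), beside 61.5% of all genes tested. Sox2, the transcription factor that keeps neural progenitors, was past 2-fold lower, at 9.51, 3.21, 11.1 and 0.734 FPKM (-3.02). It lies inside the span of the non-coding gene Sox2ot, and the counts of overlapping genes are uncertain. The related Sox1 was at 3.08 FPKM in WT and 4.14 in HOMO, Pax6 at 5.87 and 4.80, and Nes, a progenitor filament, at 41.7 and 34.7. The Sox2 value was thus not shared by the other progenitor genes. Clustered protocadherins, neuronal adhesion proteins, were below WT in 24 of 29 (median -0.30), led by Pcdhb16 at 2.16, 1.15, 2.67 and 0.848 FPKM (-0.98); most are low, and with only genes at 5 FPKM or more the median was 0.03.

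Cartilage genes were below WT in 14 of 17 members (median -0.21), such as Col2a1, the main cartilage collagen, at 68.0 FPKM in WT and 58.1 in HOMO. Heart genes were below in 14 of 18 (median -0.16), with Myl7, an atrial myosin light chain, at 15.5, 24.9, 5.11 and 9.67 FPKM (-0.66) and Myh6, an atrial and adult myosin, at 10.8, 10.3, 6.74 and 6.89 (-0.62). The heart gene furthest from WT lay above it, Hand1, a transcription factor of heart and extraembryonic tissue, at 0.9296, 1.02, 0.497 and 1.78 FPKM (0.68). Skeletal muscle genes were below in 22 of 32 (median -0.11), a share near the 61.5% below WT over all genes, with Mymk, a myoblast fusion protein, at 5.08, 2.48, 2.20 and 2.92 FPKM (-0.70), while the regulators Myod1 and Myog were at 13.2 and 20.5 FPKM in WT and 14.4 and 19.9 in HOMO. None of these genes was past 2-fold. Epidermal, lens and retina, mural cell and cell division lists had medians between -0.01 and 0.07.

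**Figure D4:**
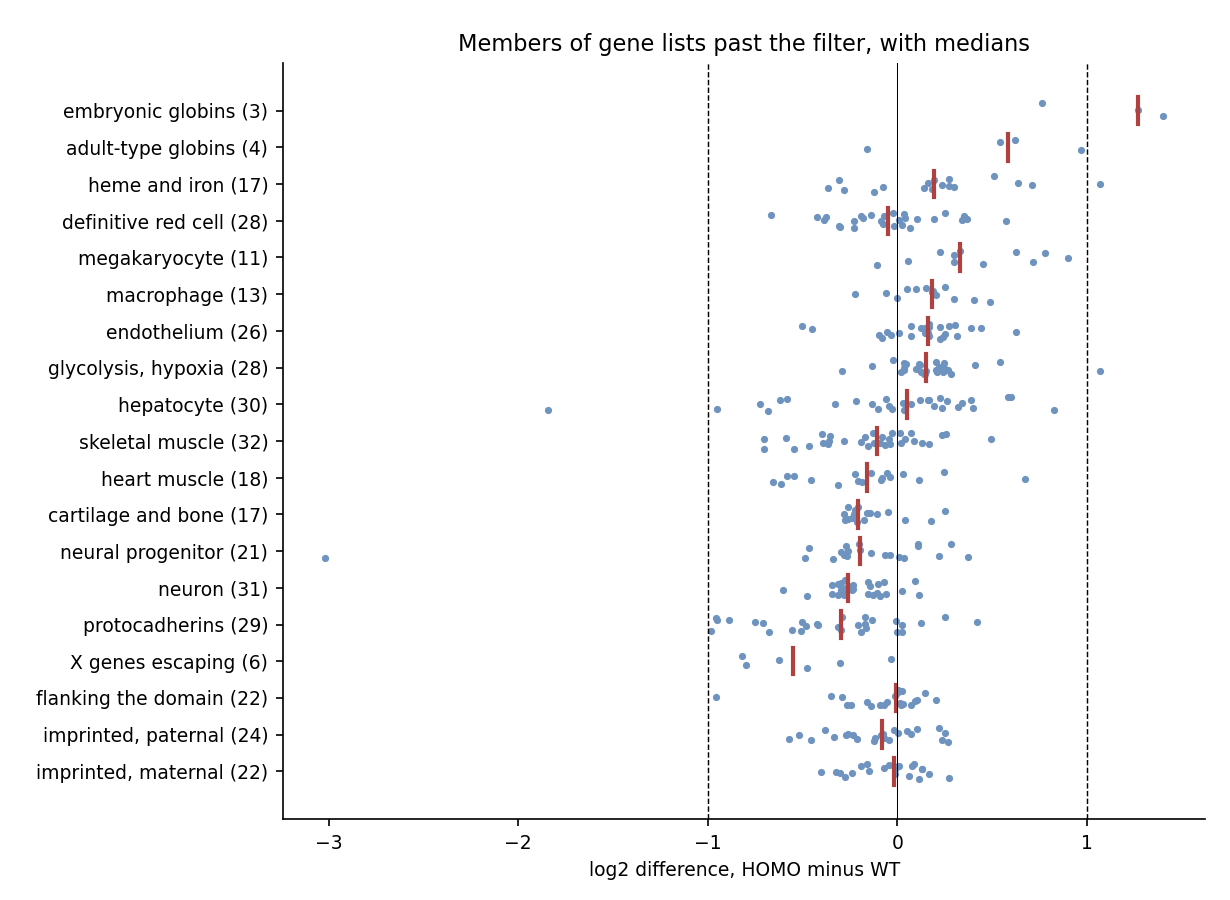
Log2 difference of HOMO from WT for the tested members of 19 gene lists (blue points, number of members in brackets), with the median of each list as a red bar. The solid line marks 0 and the dashed lines 2-fold. The median of embryonic globins lies furthest to the right at 1.27 and that of X-dosage genes (X genes escaping) furthest to the left at -0.55.

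The lists of Notch, thyroid hormone and insulin-like growth factor genes had medians near WT. Of 26 Notch receptors, ligands and effectors 11 were above WT (median -0.04), with Hes5, a Notch effector, at 21.9 FPKM in WT and 17.7 in HOMO. Of 10 thyroid hormone genes 4 were above WT (median -0.04). The insulin-like growth factor list had 8 of 19 above WT (median -0.02), with Igfbp1, a binding protein made in liver, at 1.48 and 2.48 FPKM. None of these genes was past 2-fold, and the medians of the Notch and thyroid lists are above 0 under either other scaling and that of the growth factor list under median-ratio scaling. Genes of microRNA processing (7 of 17 above WT, median -0.06) and of 3′ end cleavage and polyadenylation (8 of 19, median -0.07) lay at the median of all genes.

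Hox genes, which pattern the body axis, had 14 of 32 above WT and none past 2-fold. The highest of the list were Hoxd13 and Hoxd12, which pattern the distal limb and genital bud. Hoxd13 was at 4.84, 8.75, 5.996 and 9.72 FPKM (0.94) and Hoxd12 at 1.52, 2.52, 0.912 and 2.89 (0.75). HOMO was the highest column for both. Hoxd10 was at 3.10 FPKM in WT and 4.05 in HOMO (0.34), and Hoxd9 at 1.78 and 1.31 (-0.33).

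Single genes with the largest differences did not belong to one process, and several are members of copied families whose reads can be split between copies. Ccnb1ip1, a ubiquitin ligase of meiotic crossing over (chromosome 14), was at 1012 FPKM in WT and 1.24 in HOMO, with 2339 in PKI and 2.21 in MKI (-9.19). Sumo2, a ubiquitin-like modifier with many pseudogene copies (chromosome 11), was at 3.68, 113, 7.64 and 86.5 FPKM (4.38). Zfp146, a zinc finger gene, was at 0.831, 5.25, 0.523 and 20.9 FPKM (4.005). For Ccnb1ip1 WT and PKI lay above MKI and HOMO, the division also seen in the domain microRNAs. For Sumo2 and Zfp146 PKI and HOMO lay above WT and MKI, so no order of genotypes is common to them all. Rpl29, a ribosomal protein, was at 84.8, 98.4, 44.3 and 3.91 FPKM (-4.27), while the list of 80 ribosomal proteins had a median of 0.08. Gm10260 and Gm11361, which RefSeq lists as Rps18 pseudogenes, were at 89.2 and 39.04 FPKM in WT and at 0.681 and 3.03 in HOMO, and Rps18 itself at 152 and 301. Gm38431 was at 16.2 FPKM in WT and 5.26 in HOMO, and Raver1, which it overlaps, at 8.81 and 20.2.

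Histones, which mostly lack a poly(A) tail, had 34 of 68 above WT, with 3 past 2-fold higher and 2 lower, beside 0.67% and 0.783% of all genes. Hist2h2aa1 was at 62.2, 288, 90.8 and 600.1 FPKM (3.26) and Hist1h3d at 23.8, 0.520, 167 and 116 (2.27). The lower members were Hist1h2ae, at 166, 234, 5.63 and 79.4 FPKM (-1.06), and Hist4h4, at 85.8, 84.6, 3.23 and 42.0 (-1.02). The summed histone level was 18965 FPKM in WT and 19295 in HOMO, and 4738 in MKI. Of 13 tested mitochondrial genes 8 were below WT (median -0.09). The 1 past 2-fold was mt-Nd1, which was higher, at 96.1, 95.8, 355 and 211 FPKM (1.13), beside 0.67% of all genes. Of 88 tested nuclear respiratory chain genes 49 were above WT (median 0.03). Among these 88 genes 0 were past 2-fold higher and 2 lower, beside 0.67% and 0.783% of all genes. The lower ones were Ndufa12, at 22.7, 12.6998, 4.604 and 6.44 FPKM (-1.74), and Atp5g1, at 25.6, 53.1, 12.2 and 12.5 (-1.01).

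Other named genes past 2-fold were picked after their values were seen, for their known roles. Foxc1, a forkhead factor of mesenchyme, meninges and eye, was at 11.4, 6.85, 11.1 and 4.84 FPKM (-1.15). Pou3f3, a neural transcription factor, was at 1.03, 0.4204, 2.81 and 3.51 FPKM (1.39). Tac2, the neurokinin B precursor, was at 1.34, 1.96, 0.691 and 5.10 FPKM (1.60), and S100a8, a calcium-binding protein of neutrophils, at 0.993, 4.30, 3.53 and 3.74 (1.51). Psenen, a subunit of the gamma-secretase that cleaves Notch, was at 23.4, 32.6, 21.9 and 55.9 FPKM (1.24). Tdg, a DNA repair glycosylase that acts in demethylation, was at 25.0, 10.1, 29.7 and 9.94 FPKM (-1.29), Xpo7, a nuclear export receptor, at 31.3, 11.8, 15.2 and 13.9 (-1.14), and Pttg1, securin, at 21.8, 40.2, 15.3 and 9.64 (-1.14). For Xpo7 WT was the highest column, and for Tac2, Psenen and Pou3f3 HOMO was.

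**Figure D5:**
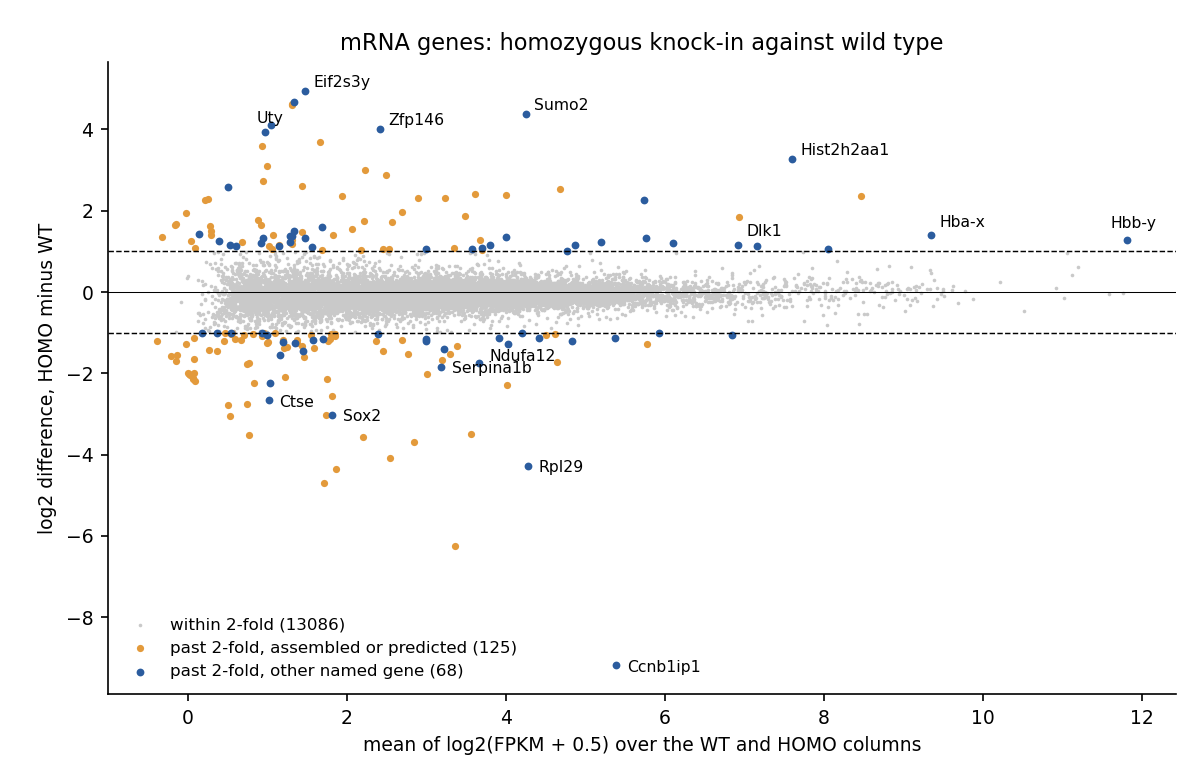
Log2 difference of HOMO from WT (vertical) against the mean of log2(FPKM + 0.5) over both columns (horizontal) for the 13279 genes tested. Dashed lines mark 2-fold; 89 genes lie above and 104 below, of which 68 have established names (blue) and the rest are assembled or predicted (orange), and genes of low level spread further than the bulk of higher ones.

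The spread depended on level. Past 2-fold lay 4.19% of genes with a mean under 2 FPKM, 1.26% at 2 to 10, 0.732% at 10 to 50 and 1.86% at 50 FPKM or more; the reads behind an FPKM value are unknown, so low genes have no counting interval. Defining markers placed the material as whole embryo: neuronal, liver, muscle, heart, cartilage, epidermal, endothelial, macrophage and lens markers were all detected in both columns, and the placental Tpbpa, Prl3d1 and Gcm1 were at 0.152, 0 and 0.0628 FPKM in WT and 0.0534, 0.272 and 0.115 in HOMO.

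Long non-coding transcripts differed more often than genes. Of 6181 tested, 185 (2.99%) were past 2-fold higher and 321 (5.19%) lower, with a median of -0.22 and 36.6% of these transcripts higher. With median-ratio scaling the median was 0.00 and the share higher 50.0%, and with quantile scaling -0.01 and 54.4%, so the lean towards lower values was not kept. The lean at large folds is described by the steps: past 4-fold lay 34 higher and 81 lower, past 8-fold 6 and 24, past 16-fold 0 and 9, and past 32-fold 0 and 5. The lowest against WT was ENSMUST00000182010, at 116, 8.92, 6.45 and 0.0226 FPKM (-7.80), followed by ENSMUST00000127786, at 79.1, 1.34, 0.0283 and 0.222 (-6.78). At the other end were the assembled transcripts MSTRG.23168.1, listed at 0 in WT and MKI and at 6.23 FPKM in PKI and 7.24 in HOMO, and MSTRG.10992.2, listed at 0 in WT and PKI and at 13.4 in MKI and 5.24 in HOMO. One assembled locus, MSTRG.25177, had all 6 of its tested transcripts past 2-fold lower, and they summed to 26.2, 22.0, 1.76 and 0.08004 FPKM. WT and PKI lay above MKI and HOMO at this locus, and HOMO was the lowest column. The files do not pair these identifiers with gene names or positions, so whether any is Meg3, Rian or Mirg was not tested.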

How the data were processed

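Whole-embryo RNA was selected with oligo(dT), marked by strand with dUTP and sequenced as paired ends, per the labels' protocols; the sources used here do not describe the small-RNA libraries. The submitters' processing notes name GRCm38, StringTie 1.3.4d, HISAT2 2.0.4 and cutadapt 1.9, and DESeq2 and edgeR without version or role. The deposited mRNA and long non-coding values were read as FPKM that the authors computed, since StringTie is named and the columns are not whole numbers; the headers name no unit and the depth is unknown. The deposited small-RNA values are RPM made by the authors, and 100% of them were whole multiples of 1 read to within 0.02 of a read. The 8 labelled samples correspond to 4 columns without replicate numbers, and the sources used here do not say whether a column is 1 library or several.

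Of 29639 mRNA entries 22022 had a symbol and 7603 were assembled; 40 entries sharing 20 symbols were summed. Filters, the pseudocount of 0.5 and the 2-fold threshold are those of the report. Ratios of reads have exact conditional 95% intervals and shares exact Clopper-Pearson ones, for counting error only. Sequences and positions are from RefSeq tables of GRCm38.p6; 105 of 109 domain microRNAs matched. Steps were tested on simulated data in Python 3.11.15 with pandas 2.3.3 and SciPy 1.17.1. No count model was fitted, because 1 column per group leaves no residual degrees of freedom.

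Named genes were the 15 largest log2 differences each way (symbol, 2-fold, 2 FPKM) and 10 in FPKM, the paternal domain genes, and up to 4 members per list; microRNAs were the 10 domain members highest in WT, the 3 extremes each way, and 8 each way outside the domain at 50 RPM; 2 identifiers each way were printed for long non-coding transcripts. Others were chosen after their values were seen. The members and lists were chosen with earlier results of these data known. Alternatives were pseudocounts, filters, median-ratio and quantile scaling, RPM over microRNAs outside the domain, and, added after seeing the data, subsets of features.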

Additional observations from a re-analysis of the deposited data

How the results depend on the processing

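No paired analysis was possible because the deposited columns carry no replicate numbers, so leaving out a replicate was likewise not run. Precision is limited by 1 column per genotype and, for FPKM, by unknown depth.

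For mRNA, 89 higher and 104 lower genes became 158 lower with a pseudocount of 0.1, 161 and 184 with no filter, 45 and 40 at 5 FPKM, and 38 and 30 without assembled and predicted genes, an alternative added after seeing the data; without X and Y genes they were 85 and 103. For long non-coding transcripts, 185 and 321 became 312 and 752 with a pseudocount of 0.1, 84 and 147 with 1, 396 and 593 with no filter, 39 and 83 at 2 FPKM, 292 higher under quantile scaling, and 45 and 60 for annotated transcripts alone, added after seeing the data. For small RNAs, 11 and 86 became 121 and 143 with no filter and 78 and 78 under quantile scaling (50.0% higher against 11.3%), where the median of all small RNAs moved from 0.07 to 0.56. At 100 RPM in 2 columns 0 were higher, since miR-29a-3p reaches that level in 1 column. The domain median was -3.98 under quantile scaling and between -5.03 and -4.55 otherwise, and the domain share in HOMO was 0.427% with either denominator. The cause was not tested where construction does not show it. Of 65 list medians, 23 changed sign under some alternative, and the largest of those that did so under a rescaling was 0.20 in size. Of 90 named features 1 changed sign, mt-Co1 (1936 FPKM in WT and 2577 in HOMO), at -0.19 under quantile scaling.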

Other observations

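Assembled genes held some of the highest levels among the differences in the mRNA table. The most abundant of them was listed at 156 FPKM in WT and 803 in HOMO, with 999 in PKI and 0 in MKI (2.36 on the log2 scale), an order of columns found in no domain gene. The 863 newly named small RNAs in the table summed to 1195 RPM in WT and 1004 in HOMO, with 1204 in PKI and 862 in MKI, and 12 of them passed the filter. Among these, novel_miR_780 was at 20.7, 28.6, 1.505 and 1.12 RPM, and novel_miR_205 at 9.99, 19.5, 11.6 and 61.6 RPM.

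Differences in the mRNA table had a Spearman's rho of -0.15 with the RefSeq gene span over 12539 genes, which share the same pair of columns. Zinc finger genes named Zfp were above WT in 89 of 320 (median -0.15). Past 2-fold lay 3 higher and 1 lower, beside 0.67% and 0.783% of all genes. Apart from Zfp146 these were Zfp961 (0.712 FPKM in WT and 2.56 in HOMO), Zfp82 (0.468 and 1.64) and Zfp991 (3.31 and 0.808). Heat shock genes were divided, with Hspa1b, the inducible chaperone, at 1.04 FPKM in WT and 2.47 in HOMO and Hsph1 and Hspd1 at 33.8 and 110.2 in WT and 23.7 and 83.2 in HOMO. Keratins of simple epithelia stood above WT, Krt19 at 2.90, 5.57, 4.74 and 4.99 FPKM and Krt8 at 5.94, 7.94, 3.80 and 8.57, while Krt10 of the upper epidermis was at 2.33, 2.41, 2.00 and 1.19. The p53 target list, which answers to DNA damage and stress, had 5 of 17 genes above WT (median -0.10), with Ccng1 at 14.9 FPKM in WT and 10.5 in HOMO.

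Among genes with a symbol, and leaving out the globins, the largest gains in FPKM were in mt-Co1, Hist2h2aa1, Hist1h3h (445 in WT and 679 in HOMO), Hist1h4m (556 and 769) and Actg1 (1093 and 1301). The largest losses among genes with a symbol, after Ccnb1ip1, were in mt-Co3 (1721 and 1254), the globin Hbb-bs (2201 and 1972), Rpsa (458 and 265) and Hist1h2ak (614 and 443). Next came Rps14 (745 and 591), Hist1h3i (903 and 752), Hist1h1c (348 and 198), Hist1h2af (440.2 and 301.9) and Ptma (447 and 309.9).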
